A study of Mus musculus with 12 samples.

Results

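The genes described here are 8 pumps of the ATP-binding cassette (ABC) superfamily that move drugs, metabolite conjugates and porphyrins across membranes. They are Abcc1, Abcc3, Abcc4 and Abcc5, the P-glycoprotein genes Abcb1a and Abcb1b, the porphyrin transporter gene Abcb6, and Abcg2. They were taken by gene symbol, 8 genes of the 25683 listed in the count table of every library. Of the 8, 7 had enough reads to be tested. Abcb1a was the exception, with 0 to 5 exon reads in a library.

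The libraries come from J774.1, a macrophage-like tumour line of BALB/c mice, sequenced as bulk RNA. Cells lacking Rictor (Rictor-KO), cells lacking GATA3 (GATA3-KO) and unmodified cells (WT) each received 10 µM isorhamnetin in 1 group and the solvent DMSO in the other, for 6 h. The groups are therefore isorhamnetin-treated and DMSO-treated Rictor-KO, isorhamnetin-treated and DMSO-treated GATA3-KO, and isorhamnetin-treated and DMSO-treated WT, with 2 libraries each and 12 in all. Isorhamnetin is a plant flavonol, Rictor is a scaffold protein that mTORC2 needs to act as a kinase, and GATA3 is a zinc-finger transcription factor. The labels name 1 line per knockout, so a knockout and the history of its line cannot be told apart. Separate cultures are not mentioned for the 2 libraries of a group, and a p-value here therefore speaks of the spread between libraries, possibly a technical one.

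ABC pumps use ATP to drive their cargo through a membrane, and they form the last step of detoxification, after enzymes have joined a foreign or reactive compound to glutathione, glucuronate or sulfate. Macrophages also use them to release signalling molecules: the products of Abcc1 and Abcc4 export leukotriene C4 and prostaglandins. Several of the genes are known targets of NRF2, a transcription factor that electrophiles and many plant flavonoids activate.

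All 8 genes lie at the positions that GENCODE M21 gives on GRCm38, the build in the processing notes of the submitters. Abcc1 (ENSMUSG00000023088) spans chr16:14361558-14475737 on the plus strand, and Abcc5 (ENSMUSG00000022822) spans chr16:20331303-20426394 on the minus strand of the same chromosome. Abcc3 (ENSMUSG00000020865) is at chr11:94343295-94392997 and Abcc4 (ENSMUSG00000032849) at chr14:118482692-118706219, both on the minus strand. The P-glycoprotein genes are neighbours on the plus strand of chromosome 5, Abcb1a (ENSMUSG00000040584) at chr5:8660077-8748575 and Abcb1b (ENSMUSG00000028970) at chr5:8798147-8866315. Abcb6 (ENSMUSG00000026198) is at chr1:75171717-75180392 on the minus strand, and Abcg2 (ENSMUSG00000029802) at chr6:58584523-58695676 on the plus strand. All 8 are protein-coding, and the values below count reads over their exons, UTRs included. Abcb1b was the one gene with reads that also matched elsewhere, and 97.0% to 98.7% of its exon reads were unique.

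RefSeq promoter windows on GRCm38.p6 matched 6 of the 8 genes, in 9 windows. Abcc1 and Abcc3 had no window, so their promoters were not searched. The 250 bases before the annotated start are shown for Abcc4, Abcc5 and Abcb6, which rose with isorhamnetin in WT cells, and for Abcb1b, which fell. Each is written 5′ to 3′ on the gene's own strand. Capitals mark TGACNNNGC, the core letters of the antioxidant response element that NRF2 binds, on either strand.
Abcc4, chr14:118706220-118706469, minus strand: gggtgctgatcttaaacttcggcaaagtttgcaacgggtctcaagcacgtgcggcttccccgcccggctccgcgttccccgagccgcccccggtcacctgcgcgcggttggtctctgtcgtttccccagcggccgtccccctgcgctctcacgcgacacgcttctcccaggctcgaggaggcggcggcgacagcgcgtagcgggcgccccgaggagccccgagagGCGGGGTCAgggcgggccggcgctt
Abcc5, chr16:20426395-20426644, minus strand: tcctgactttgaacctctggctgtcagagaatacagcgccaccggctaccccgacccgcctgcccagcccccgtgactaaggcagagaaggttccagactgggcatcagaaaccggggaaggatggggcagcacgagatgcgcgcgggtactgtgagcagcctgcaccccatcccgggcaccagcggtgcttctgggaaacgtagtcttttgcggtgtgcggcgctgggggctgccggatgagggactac
Abcb6, chr1:75180393-75180642, minus strand: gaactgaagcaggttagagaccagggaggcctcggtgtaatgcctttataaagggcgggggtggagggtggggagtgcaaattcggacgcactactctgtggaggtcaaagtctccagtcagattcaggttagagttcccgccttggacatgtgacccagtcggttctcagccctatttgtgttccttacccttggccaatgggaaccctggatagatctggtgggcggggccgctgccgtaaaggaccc
Abcb1b, chr5:8797897-8798146, plus strand: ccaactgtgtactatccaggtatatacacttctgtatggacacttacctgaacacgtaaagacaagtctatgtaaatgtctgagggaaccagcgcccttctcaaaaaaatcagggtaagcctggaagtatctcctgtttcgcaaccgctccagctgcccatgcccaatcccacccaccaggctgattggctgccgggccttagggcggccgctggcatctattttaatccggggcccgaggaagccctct

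The Abcc4 window holds the element's letters once, on the strand opposite to the gene, 25 to 17 bases before the start. A second Abcc4 start inside the gene also has them once, 23 to 15 bases before it. Neither match overlaps TGACTCA on either strand, the AP-1 letters, nor a CREB element spelled TGACGTCA. The windows of Abcc5, Abcb6 and Abcb1b have no match. Of all 32851 windows of this length, 10.2% hold the letters. GCGTG, the core of the xenobiotic response element, occurs 2 times in the printed Abcc4 window, 0 times in the other printed windows, and in 28.2% of all windows, with no overlap with TGACNNNGC in the Abcc4 window. A match describes the letters and is no evidence of binding.

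Exon reads per library ranged between 35671457 and 53099804. Of 9 macrophage markers, 8 were above 1 CPM, the unit of exon reads scaled to a common library size, in every library. The 4 epithelial markers were at 0 in all 12 libraries, and the summed level of 5 fibroblast markers reached 0.246 CPM at most, that of 5 B cell markers 1.79 CPM and that of 7 T cell markers 4.75 CPM. The summed macrophage marker level differed between groups: 2974 to 5133 CPM in isorhamnetin-treated and 2770 to 5042 CPM in DMSO-treated Rictor-KO, 2344 to 2395 CPM and 2818 to 2980 CPM in the same treatments of GATA3-KO, and 6130 to 6749 CPM and 10448.5 to 10622.7 CPM in those of WT. Mitochondrial genes took 0.854% to 1.009% of exon reads in Rictor-KO, 0.456% to 0.61% in GATA3-KO and 0.984% to 1.227% in WT. The B cell marker Cd79b was called higher in both knockout lines under DMSO (adjusted p = 0.00569 in Rictor-KO and 9.04e-04 in GATA3-KO). The summed B cell marker level there was 0.306 to 1.17 CPM in Rictor-KO, 1.56 to 1.79 CPM in GATA3-KO and 0.112 to 0.235 CPM in WT. The part of these shifts in the results below was not tested. The 2 libraries of a Rictor-KO group differed more from each other than those of WT, with a chi-square per degree of freedom of 37.0 to 37.9, against 8.12 to 17.2. Rictor was 0.918 lower on the log2 scale in DMSO-treated Rictor-KO than in DMSO-treated WT, and it was 0.855 lower in DMSO-treated GATA3-KO too. Gata3 had 11 and 12 reads in DMSO-treated GATA3-KO libraries, against 39 and 57 in DMSO-treated WT libraries, and 27 and 20 in isorhamnetin-treated GATA3-KO libraries, against 36 and 32 in isorhamnetin-treated WT libraries. DMSO-treated Rictor-KO libraries had 26 and 13 Gata3 reads (log2 -1.40 against DMSO-treated WT, adjusted p = 0.0507). The Rictor level thus does not set Rictor-KO apart from GATA3-KO. Reads over a gene need not stop where its protein does, so these levels check the labels only in part.

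Isorhamnetin raised most of the tested pumps in WT cells, and the differences between the lines are tested further on. In WT, 5 of the 7 tested genes rose (Abcc1, Abcc3, Abcc4, Abcc5 and Abcb6) and Abcb1b fell, beside 38.1% of all 11808 tested genes called in either direction (19.8% higher and 18.3% lower). In Rictor-KO, Abcc1 and Abcc3 rose and none fell, beside 1.91% of all genes called (1.43% higher and 0.483% lower). In GATA3-KO, Abcc1, Abcc5 and Abcb6 rose and none fell, beside 26.2% of all genes called (10.2% higher and 15.9% lower). Averaged over the 3 genotypes, Abcc1, Abcc3, Abcc4, Abcc5 and Abcb6 rose and none fell, beside 36.3% called (17.2% higher and 19.1% lower). The mean of Abcc4 was 0.31 on the log2 scale, and over the knockout lines alone it was 0.06 (adjusted p = 0.602). Abcb1b, at -0.10 in the mean (adjusted p = 0.0936), was called lower by DESeq2 (adjusted p = 0.0453). A gene is called at an adjusted p under 0.05 in edgeR's quasi-likelihood test over all tested genes. In bulk libraries, a change in every cell cannot be told apart from a change in the share of cells that express the gene.

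**Figure D1:**
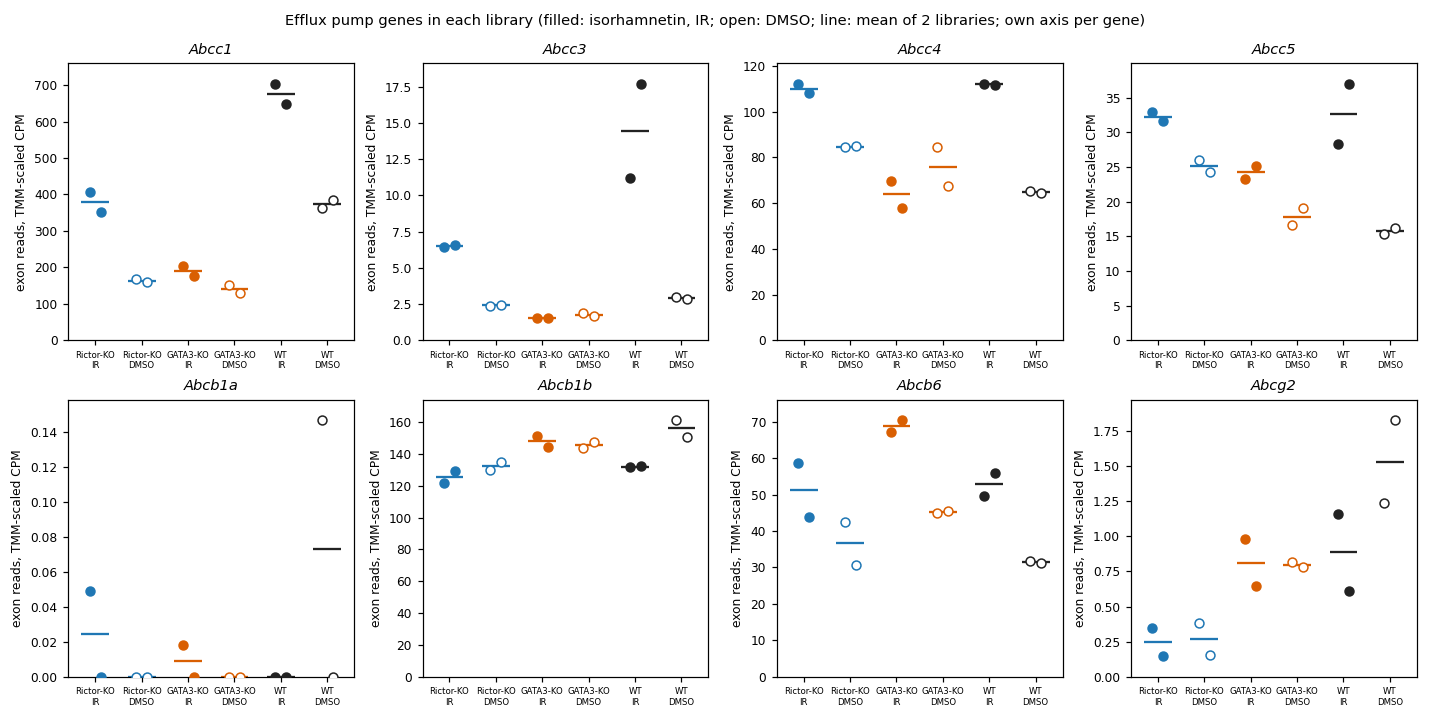
Exon reads of the 8 pump genes as CPM scaled by the trimmed mean of M-values (TMM), 1 point per library, with the mean of 2 libraries as a line and an axis of its own for each gene. Isorhamnetin-treated libraries (filled) lie above DMSO-treated ones (open) for Abcc1 in all 3 genotypes, while Abcb1b stays between 122 and 161 CPM in every library.

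Abcc1 encodes MRP1, which exports glutathione, glutathione conjugates and leukotriene C4. It had 407 and 351 CPM in isorhamnetin-treated Rictor-KO libraries, against 167 and 159 CPM in DMSO-treated Rictor-KO. In GATA3-KO it had 203 and 175 CPM with isorhamnetin, against 152 and 130 CPM with DMSO. In WT it had 704 and 648 CPM with isorhamnetin, against 363 and 385 CPM with DMSO. The treated libraries were above the DMSO libraries in every genotype, with no overlap. The Rictor-KO log2 fold change was 1.22 (SE 0.106, adjusted p = 1.03e-05). That of GATA3-KO was 0.42 (SE 0.105, adjusted p = 0.0104), and that of WT was 0.85 (SE 0.105, adjusted p = 2.47e-05). The GATA3-KO call was lost without replicate 2 of its DMSO group (adjusted p = 0.0631) and without replicate 1 of its isorhamnetin group (adjusted p = 0.0806).

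Abcc3 encodes MRP3, an exporter of glucuronide conjugates and bile salts. Its levels were low and its relative change in WT was the widest of the set: 11.2 and 17.7 CPM with isorhamnetin, against 2.97 and 2.84 CPM with DMSO. In Rictor-KO it had 6.40 and 6.55 CPM with isorhamnetin, against 2.39 and 2.45 CPM with DMSO. GATA3-KO libraries had 1.53 and 1.57 CPM with isorhamnetin, against 1.87 and 1.65 CPM with DMSO. Treated libraries were higher in Rictor-KO and WT and lower in GATA3-KO, without overlap in any of them. The fold change was 2.67 in Rictor-KO (log2 1.42, SE 0.235, adjusted p = 0.00443) and 4.98 in WT (log2 2.32, SE 0.236, adjusted p = 5.03e-06). The GATA3-KO log2 fold change of -0.19 (95% confidence interval -0.72 to 0.35) did not pass the test. In Rictor-KO the call was lost when only the Rictor-KO libraries were fitted (log2 1.42, adjusted p = 0.108). In that fit, 32 of 11105 genes were called higher and 4 lower. In the authors' deposited table, the log2 fold change of Abcc3 was 1.43 in Rictor-KO, -0.17 in GATA3-KO and 2.32 in WT.

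Abcc4 encodes MRP4, which carries cyclic nucleotides and prostaglandins. In Rictor-KO it had 112 and 108 CPM with isorhamnetin, against 84.5 and 84.8 CPM with DMSO. In GATA3-KO it had 69.7 and 58.0 CPM with isorhamnetin, against 84.5 and 67.5 CPM with DMSO. WT libraries had 112 and 112 CPM with isorhamnetin, against 65.4 and 64.3 CPM with DMSO. Treated and DMSO libraries were apart in Rictor-KO and in WT and overlapped in GATA3-KO. The WT rise passed the test (log2 0.79, SE 0.108, adjusted p = 6.37e-05). The Rictor-KO one did not: the log2 fold change was 0.38 (95% confidence interval 0.15 to 0.61, adjusted p = 0.103; DESeq2 adjusted p = 0.0367). In GATA3-KO the log2 fold change was -0.25 (95% confidence interval -0.48 to -0.02, adjusted p = 0.101). With same-numbered libraries of a line fitted as blocks in edgeR, both passed: Rictor-KO at 0.38 (adjusted p = 5.44e-04) and GATA3-KO at -0.25 (adjusted p = 0.00205). Without blocks and leaving out 1 library in turn, the GATA3-KO value ran between -0.40 and -0.06. It was -0.40 without replicate 2 of its DMSO group and -0.39 without replicate 1 of its isorhamnetin group. The Rictor-KO value ran between 0.35 and 0.41.

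Abcc5 encodes MRP5, an exporter of cyclic nucleotides and nucleotide analogues. Rictor-KO libraries had 32.9 and 31.6 CPM with isorhamnetin, against 26.0 and 24.3 CPM with DMSO. GATA3-KO libraries had 23.3 and 25.1 CPM with isorhamnetin, against 16.6 and 19.0 CPM with DMSO. In WT it had 28.3 and 37.0 CPM with isorhamnetin, against 15.4 and 16.2 CPM with DMSO. Treated libraries were the higher ones in each genotype, with no overlap. The log2 fold changes of GATA3-KO (0.44, SE 0.128, adjusted p = 0.0222) and WT (1.05, SE 0.130, adjusted p = 2.64e-05) passed the test. That of Rictor-KO was 0.36 (95% confidence interval 0.09 to 0.63, adjusted p = 0.210), and it passed with same-numbered libraries fitted as blocks (adjusted p = 0.0230). The GATA3-KO call was lost without replicate 1 of its DMSO group (log2 0.37) and without replicate 2 of its isorhamnetin group (log2 0.39).

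Abcb6 encodes a half-transporter that carries porphyrins. In Rictor-KO it had 58.7 and 43.9 CPM with isorhamnetin, against 42.6 and 30.8 CPM with DMSO. GATA3-KO libraries had 67.2 and 70.4 CPM with isorhamnetin, against 44.9 and 45.6 CPM with DMSO. WT libraries had 49.7 and 55.9 CPM with isorhamnetin, against 31.7 and 31.3 CPM with DMSO. The treatments did not overlap in any genotype, though in each Rictor-KO group replicate 1 was well above replicate 2. GATA3-KO had a log2 fold change of 0.61 (SE 0.147, adjusted p = 0.0102) and WT one of 0.75 (SE 0.149, adjusted p = 0.00161). That of Rictor-KO was 0.48 (95% confidence interval 0.16 to 0.80, adjusted p = 0.149), and it passed with same-numbered libraries fitted as blocks (0.49, adjusted p = 6.63e-04). Without blocks and leaving out 1 library in turn, the Rictor-KO value ran between 0.26 and 0.74. It was 0.74 without replicate 1 of the DMSO group and 0.68 without replicate 2 of the isorhamnetin group. The GATA3-KO call was lost without replicate 1 of its DMSO group and without replicate 2 of its isorhamnetin group. Its log2 fold change was 0.61 and 0.57 in those fits, near the value with all libraries.

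The P-glycoprotein genes pump hydrophobic drugs out of cells, and mice have a pair of them where humans have ABCB1 alone. Abcb1b supplied nearly all of their reads. It had 122 and 129 CPM in isorhamnetin-treated Rictor-KO libraries, against 130 and 135 CPM in DMSO-treated Rictor-KO. In GATA3-KO it had 151 and 144 CPM with isorhamnetin, against 144 and 148 CPM with DMSO. WT libraries had 132 and 132 CPM with isorhamnetin, against 161 and 151 CPM with DMSO. The treated libraries were below the DMSO ones in Rictor-KO and WT and overlapped with them in GATA3-KO. The WT change passed the test at a log2 fold change of -0.24 (SE 0.0757, adjusted p = 0.0220). That call was lost without replicate 1 of the WT DMSO group (adjusted p = 0.174) and without either WT isorhamnetin library (adjusted p = 0.0900 and 0.106), and on exon-exon reads alone (log2 -0.17, adjusted p = 0.123). The log2 fold change of Abcb1b was -0.08 (95% confidence interval -0.24 to 0.09) in Rictor-KO and 0.02 (95% confidence interval -0.14 to 0.18) in GATA3-KO. Abcb1a had 2 reads in 1 isorhamnetin-treated Rictor-KO library, 1 read in 1 isorhamnetin-treated GATA3-KO library, 5 reads in 1 DMSO-treated WT library and none elsewhere. A count of 0 allows up to 3 reads in a library, counting error only, and more where both reads of a pair were counted; 81.3% of exon read values between 1 and 4 were even.

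Abcg2 encodes a half-transporter of drugs, urate and sulfate conjugates that works as a dimer. It had 14 and 6 exon reads in isorhamnetin-treated Rictor-KO libraries, against 14 and 6 reads in DMSO-treated Rictor-KO. GATA3-KO libraries had 53 and 28 reads with isorhamnetin, against 32 and 32 reads with DMSO. WT libraries had 46 and 24 reads with isorhamnetin, against 42 and 65 reads with DMSO. Scaled to CPM, the WT treatments were narrowly apart, at 1.16 and 0.611 CPM with isorhamnetin against 1.23 and 1.83 CPM with DMSO, and the knockout treatments overlapped. The WT log2 fold change of -0.79 (95% confidence interval -1.99 to 0.42) did not pass the test. No response of Abcg2 to isorhamnetin was detected in any line.

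**Figure D2:**
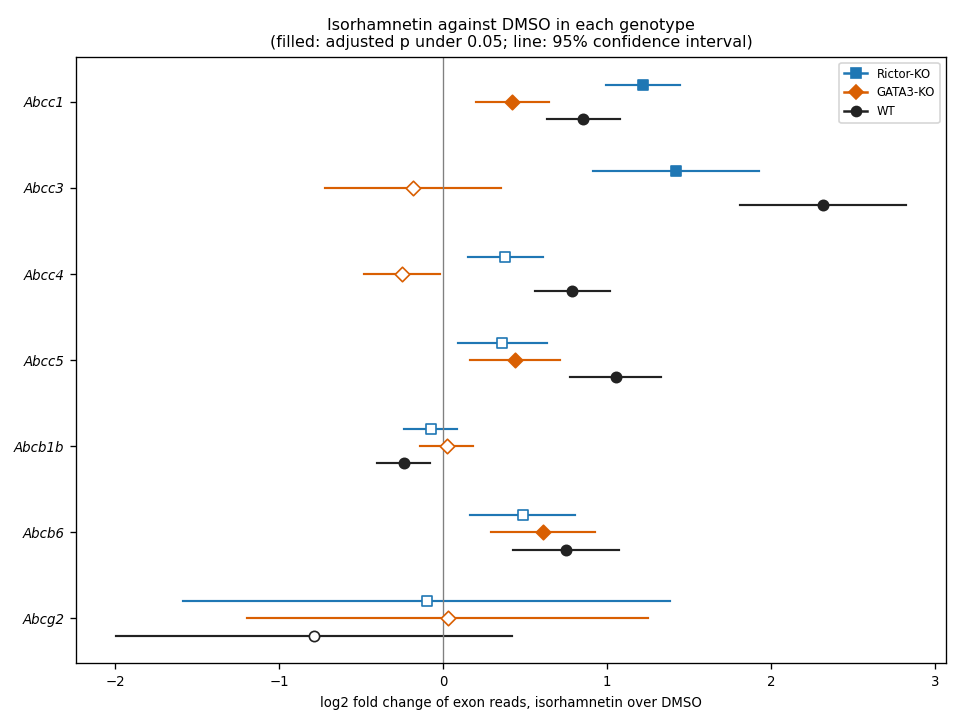
Log2 fold change of exon reads, isorhamnetin over DMSO, for the 7 tested pump genes in Rictor-KO, GATA3-KO and WT. Filled symbols passed an adjusted p under 0.05 and lines are 95% confidence intervals of each gene alone; Abcc3 spreads widest, at 1.42 in Rictor-KO, -0.19 in GATA3-KO and 2.32 in WT.

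Whether the response differed between a knockout line and WT was tested as a difference of log2 fold changes. The GATA3-KO response was smaller than the WT response for Abcc1, Abcc3, Abcc4 and Abcc5, and none of the other 3 tested pump genes passed; 28.0% of all tested genes were called in this comparison (15.5% lower and 12.4% higher). The difference was -0.43 for Abcc1 (SE 0.147, adjusted p = 0.0415) and -2.50 for Abcc3 (SE 0.342, adjusted p = 2.09e-04). It was -1.04 for Abcc4 (SE 0.152, adjusted p = 3.42e-04) and -0.61 for Abcc5 (SE 0.182, adjusted p = 0.0231). Abcb6 had a difference of -0.14 (95% confidence interval -0.59 to 0.31) and Abcb1b one of 0.26 (95% confidence interval 0.03 to 0.49, adjusted p = 0.0825; DESeq2 adjusted p = 0.0282). The Abcc3 and Abcc4 calls held without each library in turn. The Abcc1 call was lost without any 1 of the 4 WT libraries, replicate 1 of the GATA3-KO DMSO group or replicate 2 of the GATA3-KO isorhamnetin group (adjusted p = 0.0651 to 0.198). The Abcc5 call was lost without either WT DMSO library, replicate 2 of the WT isorhamnetin group, replicate 2 of the GATA3-KO DMSO group or either GATA3-KO isorhamnetin library (adjusted p = 0.0507 to 0.134), and also with intron reads counted in (adjusted p = 0.0630).

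Between Rictor-KO and WT the response of 1 pump gene differed, beside 13.8% of all tested genes called (7.11% lower and 6.65% higher). The Abcc5 response was 0.69 smaller in Rictor-KO on the log2 scale (difference -0.69, SE 0.181, adjusted p = 0.0209). That call was lost without either WT DMSO library, replicate 2 of the WT isorhamnetin group, replicate 1 of the Rictor-KO DMSO group or replicate 2 of the Rictor-KO isorhamnetin group (adjusted p = 0.0525 to 0.136). Abcc1 pointed the other way, with a difference of 0.36 (95% confidence interval 0.05 to 0.68, adjusted p = 0.123). Abcc3 (-0.90, adjusted p = 0.0873) and Abcc4 (-0.41, adjusted p = 0.0915) missed the threshold. With same-numbered libraries of a line fitted as blocks, Abcc1 (0.36, adjusted p = 0.00350), Abcc3 (-0.86, adjusted p = 0.0476) and Abcc4 (-0.41, adjusted p = 0.00125) passed. Without blocks and leaving out 1 library in turn, the Abcc3 difference ran between -1.19 and -0.53. That of Abcc4 ran between -0.44 and -0.38.

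The knockout lines differed from WT before any isorhamnetin was added, and Abcc1 was the pump gene that differed in all 4 comparisons. With DMSO it had 167 and 159 CPM in Rictor-KO and 152 and 130 CPM in GATA3-KO, against 363 and 385 CPM in WT. Every knockout library was below every WT library. The log2 fold change of Rictor-KO over WT was -1.20 (SE 0.106, adjusted p = 9.47e-07), and that of GATA3-KO over WT was -1.41 (SE 0.106, adjusted p = 1.57e-07). With isorhamnetin in both lines being compared, Abcc1 was lower too, at -0.84 for Rictor-KO over WT (SE 0.104, adjusted p = 4.79e-05) and -1.84 for GATA3-KO over WT (SE 0.107, adjusted p = 1.60e-08). The 4 comparisons of knockout with WT share their libraries in pairs, so they are not independent of each other or of the responses above.

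Under DMSO, 3 of the 7 tested genes were lower in Rictor-KO than in WT and 2 were higher, beside 40.0% of all tested genes called (20.7% lower and 19.3% higher). Abcc4 was higher (84.5 and 84.8 CPM, against 65.4 and 64.3 CPM in WT; log2 0.38, adjusted p = 0.0110), and so was Abcc5 (26.0 and 24.3 CPM, against 15.4 and 16.2 CPM in WT; log2 0.67, adjusted p = 8.89e-04). The DMSO level of both genes in Rictor-KO lay between the isorhamnetin and DMSO levels of WT. Abcb1b was lower by a small margin (130 and 135 CPM, against 161 and 151 CPM in WT; log2 -0.24, adjusted p = 0.0221). Abcg2 had 14 and 6 reads, against 42 and 65 in WT (log2 -2.52, SE 0.629, adjusted p = 0.00550). Leaving out 1 library ended 3 of these calls. That of Abcc4 was lost without either WT DMSO library (adjusted p = 0.0544 and 0.0729), and that of Abcb1b without replicate 1 of either group (adjusted p = 0.117 without the Rictor-KO library and 0.174 without the WT library) or on exon-exon reads (adjusted p = 0.0580). That of Abcg2 was lost without replicate 2 of either group (log2 -2.00 and adjusted p = 0.0513 without the Rictor-KO library, -2.20 and 0.0506 without the WT library), and its log2 fold change was -3.30 without replicate 1 of Rictor-KO. Abcb6 (0.22, 95% confidence interval -0.10 to 0.54) did not pass. Its log2 fold change was -0.03 without replicate 1 of the Rictor-KO DMSO group and 0.44 without replicate 2.

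In DMSO-treated GATA3-KO cells, Abcc1 and Abcc3 were lower than in WT and Abcb6 was higher, beside 53.9% of all tested genes called (27.1% lower and 26.8% higher). Abcc3 had 1.87 and 1.65 CPM in GATA3-KO, against 2.97 and 2.84 CPM in WT (log2 -0.72, SE 0.246, adjusted p = 0.0230). Abcb6 had 44.9 and 45.6 CPM in GATA3-KO, against 31.7 and 31.3 CPM in WT (log2 0.52, SE 0.149, adjusted p = 0.00956). The Abcc3 call was lost without any 1 of the 4 libraries compared (adjusted p = 0.0504 to 0.123) and with intron reads counted in (adjusted p = 0.0827). The Abcb6 call was lost without replicate 2 of WT or either GATA3-KO library (adjusted p = 0.0510 to 0.0624). Abcc4, at 84.5 and 67.5 CPM in GATA3-KO, did not pass (log2 0.23, edgeR adjusted p = 0.0881). Leaving out 1 library in turn, its log2 fold change ran between 0.06 and 0.38, the larger value without replicate 2 of the GATA3-KO group.

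With isorhamnetin, Abcc1 and Abcc3 were lower in Rictor-KO than in WT and no pump gene was higher, beside 22.0% of all tested genes called (12.7% lower and 9.36% higher). Abcc3 had 6.40 and 6.55 CPM in Rictor-KO, against 11.2 and 17.7 CPM in WT (log2 -1.16, SE 0.223, adjusted p = 0.00181), and the call was lost without replicate 2 of WT (log2 -0.79, adjusted p = 0.0624). Abcc4 and Abcc5 did not pass, each with a log2 fold change of -0.02 (95% confidence interval -0.25 to 0.20 for Abcc4 and -0.29 to 0.25 for Abcc5). Abcg2 had 14 and 6 reads in Rictor-KO, against 46 and 24 in WT (log2 -1.83, adjusted p = 0.0526). It passed with DESeq2 (adjusted p = 0.0402). Leaving out 1 library in turn, its edgeR log2 fold change ran between -2.55 and -1.30.

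GATA3-KO cells with isorhamnetin were below WT for Abcc1, Abcc3, Abcc4 and Abcc5 and above WT for Abcb6, beside 61.6% of all tested genes called (32.1% lower and 29.6% higher). Abcc3 had 1.53 and 1.57 CPM, against 11.2 and 17.7 CPM in WT (log2 -3.22, SE 0.246, adjusted p = 1.41e-07), a level 0.107 times that of WT. Abcc4 had 69.7 and 58.0 CPM, against 112 and 112 CPM in WT (log2 -0.81, SE 0.107, adjusted p = 1.68e-05). Abcc5 had 23.3 and 25.1 CPM, against 28.3 and 37.0 CPM in WT (log2 -0.43, adjusted p = 0.00829). That call was lost without replicate 2 of WT (log2 -0.23, adjusted p = 0.174) and without replicate 1 of GATA3-KO (adjusted p = 0.0627). Abcb6 had 67.2 and 70.4 CPM, against 49.7 and 55.9 CPM in WT (log2 0.38, adjusted p = 0.0361). Leaving out replicate 1 of WT or either GATA3-KO library of this comparison ended the call (adjusted p = 0.0858 to 0.190), and so did leaving out any 1 DMSO library of GATA3-KO or WT (adjusted p = 0.0518 to 0.0633), counting intron reads in (adjusted p = 0.0550) or taking exon-exon reads alone (adjusted p = 0.0826).

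**Figure D3:**
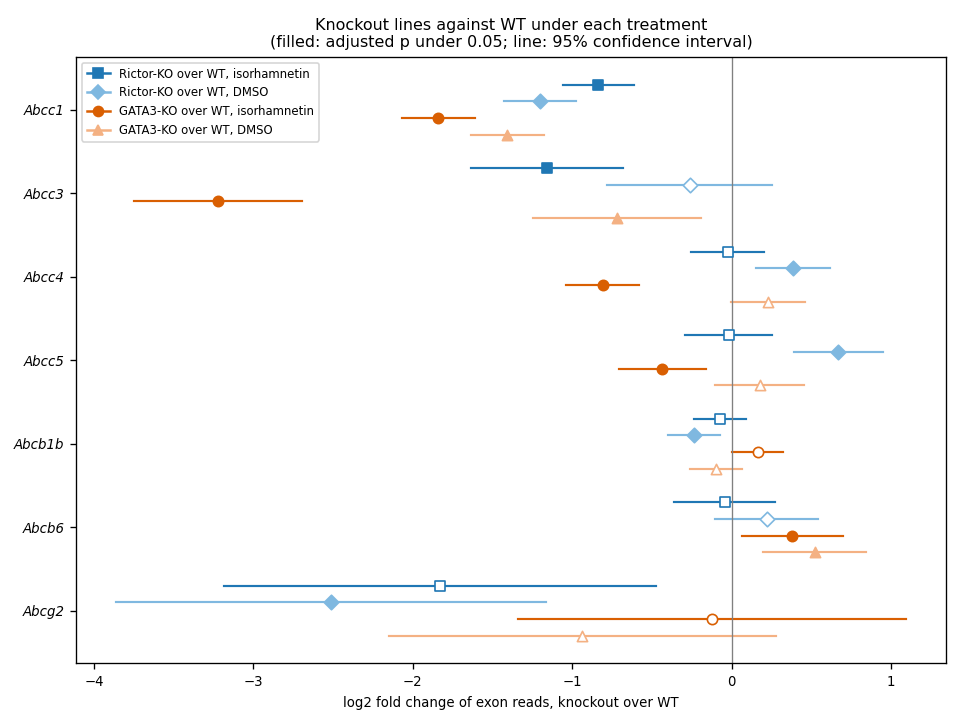
Log2 fold change of exon reads, knockout line over WT, for the 7 tested pump genes with isorhamnetin and with DMSO. Filled symbols passed an adjusted p under 0.05 and lines are 95% confidence intervals of each gene alone; Abcc1 lies left of 0 in all 4 comparisons, from -0.84 to -1.84.

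Ranked over the 6 groups, the genes kept different orders. Mean Abcc1 was lowest in DMSO-treated GATA3-KO (141 CPM), then DMSO-treated Rictor-KO (163 CPM) and isorhamnetin-treated GATA3-KO (189 CPM). DMSO-treated WT (374 CPM) and isorhamnetin-treated Rictor-KO (379 CPM) followed with overlapping libraries, and isorhamnetin-treated WT (676 CPM) was highest. For Abcc4 and Abcc5 the 2 highest groups, isorhamnetin-treated Rictor-KO and isorhamnetin-treated WT, overlapped, at 110 and 112 CPM for Abcc4 and at 32.3 and 32.7 CPM for Abcc5. Abcb6 was highest in isorhamnetin-treated GATA3-KO (68.8 CPM) and lowest in DMSO-treated WT (31.5 CPM), and the DMSO-treated Rictor-KO libraries (36.7 CPM) overlapped those of DMSO-treated WT. For Abcc3 no neighbours in the order overlapped, between 1.55 CPM in isorhamnetin-treated GATA3-KO and 14.5 CPM in isorhamnetin-treated WT. Its steps between the GATA3-KO treatments (log2 -0.19, edgeR adjusted p = 0.630) and between DMSO-treated Rictor-KO and WT (log2 -0.26, adjusted p = 0.419) did not pass the test. How many of all genes keep such an order without overlap was not counted.

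Compared per length, in RPKM (exon CPM, TMM-scaled, divided by exon length in kilobases), Abcc1 and Abcb1b made up most of the pump mRNA. Abcc1 averaged 54.6 RPKM in isorhamnetin-treated Rictor-KO, 27.3 RPKM in isorhamnetin-treated GATA3-KO and 97.5 RPKM in isorhamnetin-treated WT. Abcb1b averaged 27.8, 32.8 and 29.3 RPKM in the same 3 groups. Abcc1 gave 44.6% and 42.5% of the summed RPKM of the 8 genes in isorhamnetin-treated Rictor-KO libraries, against 27.8% in both DMSO-treated ones. Its share was 28.8% and 26.5% with isorhamnetin, against 25.3% and 22.9% with DMSO, in GATA3-KO. In WT it was 58.4% and 54.8% with isorhamnetin, against 46.2% and 48.7% with DMSO. Abcb1b was thus ahead of Abcc1 in both DMSO-treated knockout groups and in isorhamnetin-treated GATA3-KO, and behind it in the remaining 3 groups. The summed level was 131 and 119 RPKM in isorhamnetin-treated Rictor-KO, 102 and 95.4 RPKM in isorhamnetin-treated GATA3-KO, 174 and 170 RPKM in isorhamnetin-treated WT, and 82.0 to 114 RPKM in the DMSO-treated libraries. Abcc3 never passed 2.89 RPKM as a group mean and Abcg2 never 0.254 RPKM.

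**Figure D4:**
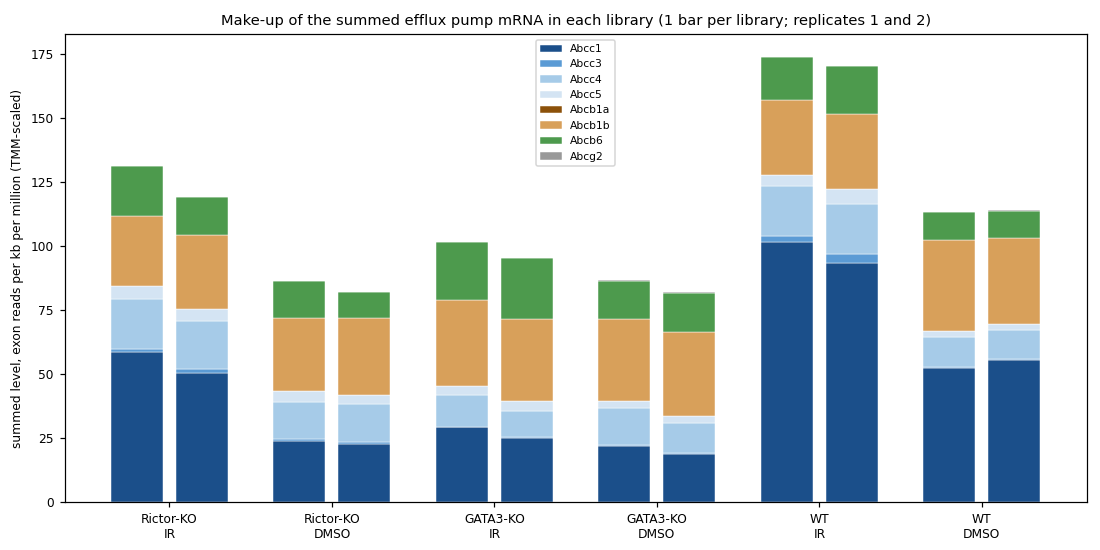
Summed level of the 8 pump genes in each library, in RPKM, 1 bar per library, stacked by gene. The Abcc1 segment (bottom) takes 58.4% and 54.8% of the isorhamnetin-treated WT bars and 25.3% and 22.9% of the DMSO-treated GATA3-KO bars.

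Reads over introns come mostly from transcripts that are not yet spliced, and they were tested separately. Averaged over the 3 genotypes, Abcc1, Abcc3 and Abcc5 rose in intron reads too, beside 9.68% of 11450 genes tested on introns (4.43% higher and 5.25% lower). Abcc1 had 256 and 257 intron CPM with isorhamnetin, against 127 and 143 with DMSO, in Rictor-KO (log2 0.93, SE 0.148, adjusted p = 2.89e-04), where 0.524% of genes were called (0.410% higher and 0.114% lower). In GATA3-KO it had 149 and 196 intron CPM with isorhamnetin, against 90.5 and 90.1 with DMSO (log2 0.93, SE 0.153, adjusted p = 3.01e-04), where 1.60% of genes were called (0.437% higher and 1.16% lower). In WT it had 372 and 315 intron CPM with isorhamnetin, against 279 and 277 with DMSO, and the log2 fold change of 0.31 (SE 0.144, adjusted p = 0.164) did not pass, where 14.7% of genes were called (7.43% higher and 7.29% lower). The intron response of Abcc1 was thus 0.93 in GATA3-KO beside 0.42 in exon reads, and 0.31 in WT beside 0.85 in exon reads. The difference between intron and exon responses was not tested. On introns alone, the Abcc1 response of GATA3-KO minus that of WT was 0.63 (95% confidence interval 0.20 to 1.05, adjusted p = 0.0687), of opposite sign to the exon value of -0.43.

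Abcc5 rose in the intron reads of WT, with 111 and 131 CPM in isorhamnetin-treated libraries against 51.5 and 69.5 CPM in DMSO-treated ones (log2 0.99, SE 0.189, adjusted p = 2.44e-04). The Rictor-KO value was 0.63 (adjusted p = 0.151), and the GATA3-KO value 0.59 (adjusted p = 0.115). Abcc3 rested on few intron reads, 22 and 55 in isorhamnetin-treated WT libraries against 4 and 0 in DMSO-treated ones, and passed in WT (adjusted p = 0.00114). Abcc4, Abcb1b and Abcb6 did not pass in any genotype. The WT log2 fold change in intron reads was 0.38 for Abcc4 (95% confidence interval -0.00 to 0.77) and 0.61 for Abcb6 (95% confidence interval -0.04 to 1.27). Abcb1a and Abcg2 had too few intron reads to test.

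**Figure D5:**
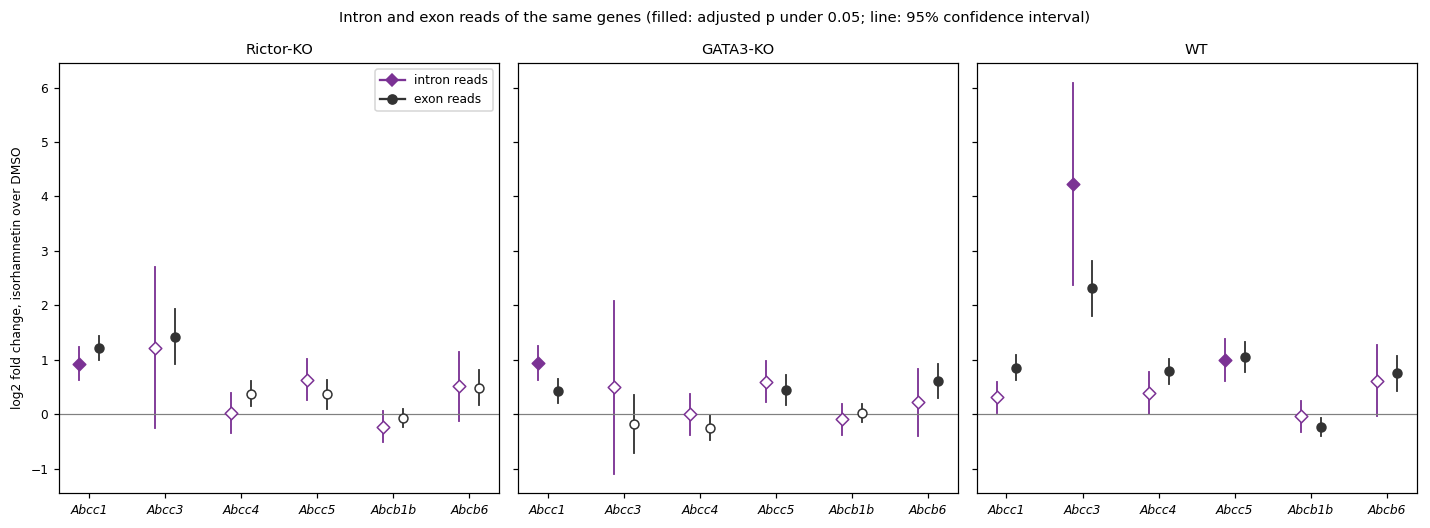
Log2 fold change of isorhamnetin over DMSO in intron reads (diamonds) and exon reads (circles) for the 6 pump genes tested on both, in each genotype, with 95% confidence intervals of each gene alone and filled symbols for an adjusted p under 0.05. Abcc1 intron reads changed by 0.93 in Rictor-KO, 0.93 in GATA3-KO and 0.31 in WT.

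The tables list 52 ABC genes, 41 of them with an exon read, and 33 were tested. Among the 26 tested ABC genes outside the set, 1 rose and 0 fell with isorhamnetin in Rictor-KO, 1 rose and 5 fell in GATA3-KO, and 8 rose and 5 fell in WT. These counts and those of the ABC groups below stand beside called shares of all genes of 1.43% higher and 0.483% lower in Rictor-KO, 10.2% and 15.9% in GATA3-KO, and 19.8% and 18.3% in WT. Abcb4, the phospholipid transporter next to Abcb1b, was the one called gene among 3 tested of 8 other drug and conjugate transporters. It had 61.7 and 56.6 CPM in isorhamnetin-treated WT, against 30.9 and 28.3 CPM in DMSO-treated WT (log2 1.00, adjusted p = 0.00904), and did not pass in the knockout lines. Of 12 tested lipid transporters of the ABCA, ABCD and ABCG families, 1 rose and 0 fell in Rictor-KO, 0 rose and 2 fell in GATA3-KO, and 5 rose and 2 fell in WT. Abcg1, a sterol exporter, rose in Rictor-KO (log2 0.68, adjusted p = 0.00482) and in WT (log2 0.68, adjusted p = 3.22e-04). Abca7 (log2 0.53) and the peroxisomal fatty acid transporter Abcd3 (log2 0.38) rose in WT. Of 6 peptide and mitochondrial ABCB transporters, 0 rose and 0 fell in Rictor-KO, 0 rose and 2 fell in GATA3-KO, and 2 rose and 1 fell in WT. Mitochondrial Abcb10 (log2 1.18) and Abcb8 (log2 0.54) rose in WT, and Tap1, which loads peptides for antigen presentation, fell in WT (log2 -1.37) and in GATA3-KO (log2 -0.38). Among the 4 ABC proteins without a membrane domain, none was called in Rictor-KO, 1 rose and 1 fell in GATA3-KO, and 2 fell in WT. Abce1, a ribosome recycling factor, fell in WT (log2 -0.31, adjusted p = 0.0194), and the translation factor Abcf1 fell in GATA3-KO (log2 -0.35, adjusted p = 0.0110).

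The enzymes that make the pumps' cargo were taken from lists chosen with earlier results of these data known, and each count is set beside the shares of all genes given above. Of 19 tested genes of glutathione supply and conjugation, 5 rose and 0 fell in Rictor-KO (median log2 fold change 0.32), 11 rose and 0 fell in GATA3-KO (median 0.46), and 10 rose and 1 fell in WT (median 0.43). The medians over all tested genes lay between -0.01 and 0.01 in the same comparisons. Gclc and Gclm, which together form glutamate-cysteine ligase, rose in all 3 lines, Gclm by a log2 fold change of 1.99 in Rictor-KO, 1.80 in GATA3-KO and 2.59 in WT. Glutathione reductase, Gsr, rose by 1.15, 0.89 and 1.56 on the log2 scale in the same order.

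Of 12 tested genes of glucuronidation, sulfation and methylation, 1 rose and 0 fell in Rictor-KO (median 0.15), 3 rose and 1 fell in GATA3-KO (median 0.01), and 6 rose and 0 fell in WT (median 0.47). Ugt1a7c, a glucuronosyltransferase, rose by a log2 fold change of 0.57 in Rictor-KO, 0.60 in GATA3-KO and 1.29 in WT. Ugt1a6a had 4.21 and 4.48 CPM in isorhamnetin-treated WT, against 0.764 and 0.281 CPM in DMSO-treated WT, and rose there (adjusted p = 1.54e-04). Both share exons in the Ugt1a cluster, so reads may be split between them. Slc35b2, the carrier of the sulfate donor, rose in GATA3-KO (log2 0.50) and in WT (log2 0.53).

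Of 18 tested genes of heme synthesis, export and breakdown, 3 rose and 0 fell in Rictor-KO (median 0.15), 10 rose and 0 fell in GATA3-KO (median 0.34), and 10 rose and 0 fell in WT (median 0.38). Hmox1, which degrades heme, Slc48a1, a heme carrier of endolysosomes, and Alas1, the first enzyme of heme synthesis, rose in all 3 lines. The NRF2 system had 15 of 29 tested genes higher and 0 lower in Rictor-KO (median 0.64), 16 higher and 3 lower in GATA3-KO (median 0.46), and 20 higher and 3 lower in WT (median 0.87). Srxn1, which repairs oxidised peroxiredoxins, rose by a log2 fold change of 1.65 in Rictor-KO, 1.41 in GATA3-KO and 2.12 in WT.

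Of 14 tested genes of leukotriene and prostaglandin synthesis, 0 rose and 0 fell in Rictor-KO (median 0.30), 3 rose and 0 fell in GATA3-KO (median 0.30), and 6 rose and 1 fell in WT (median 0.80). Alox5ap, which hands arachidonate to 5-lipoxygenase, rose in WT (log2 0.98, adjusted p = 3.30e-06). Pla2g4a, which releases arachidonate, and Ptgr1, which inactivates leukotriene B4, rose in GATA3-KO (log2 0.74 and 0.62) and in WT (log2 0.61 and 1.22). Of 13 tested genes of cyclic nucleotide synthesis and breakdown, 0 rose and 1 fell in Rictor-KO (median -0.09), 0 rose and 3 fell in GATA3-KO (median -0.21), and 2 rose and 5 fell in WT (median -0.25). The phosphodiesterase gene Pde4b had 20.7 CPM on average in isorhamnetin-treated WT, against 66.4 CPM in DMSO-treated WT (log2 -1.68, adjusted p = 6.83e-07). Sting1, the sensor of cyclic dinucleotides, fell in GATA3-KO (log2 -0.62) and in WT (log2 -0.74), and Cgas, which makes one of them, fell in Rictor-KO (log2 -0.39) and in WT (log2 -0.62).

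Of 12 tested genes of organic ion uptake and multidrug exchange, 1 rose and 0 fell in Rictor-KO (median 0.29), 2 rose and 1 fell in GATA3-KO (median 0.08), and 4 rose and 2 fell in WT (median 0.22). Slco4a1, an organic anion uptake carrier, rose by a log2 fold change of 0.62 in Rictor-KO, 0.23 in GATA3-KO and 0.85 in WT. Slc22a4, a carrier of ergothioneine, had 2.65 and 3.66 CPM in isorhamnetin-treated WT libraries, against 0 and 0.0562 CPM in DMSO-treated ones. Slc15a3, a lysosomal peptide carrier, fell in GATA3-KO (log2 -0.71) and in WT (log2 -2.66). Of 14 tested xenobiotic receptors and phase I enzymes, 0 rose and 0 fell in Rictor-KO (median 0.10), 1 rose and 1 fell in GATA3-KO (median -0.04), and 3 rose and 3 fell in WT (median 0.09). Rxra, a partner of nuclear receptors, averaged 9.08 CPM in isorhamnetin-treated WT, against 3.03 CPM in DMSO-treated WT, and rose there. Ppard, a fatty acid receptor, fell in GATA3-KO (log2 -0.49) and in WT (log2 -0.65). Cyp4v3, a fatty acid hydroxylase, averaged 0.659 CPM in isorhamnetin-treated GATA3-KO, against 0.127 CPM with DMSO, and 8.98 CPM in isorhamnetin-treated WT, against 3.18 CPM with DMSO, and rose in both.

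Likeness of pattern was measured as Pearson's r of log2 CPM over the 12 libraries, which share their 6 groups and so are not independent points. Abcc1 was most like Mafg, a partner of NRF2 (r = 0.984), followed by Ank (0.974) and Cd300lb (0.971). For Abcc3 the nearest genes were Irf2bp2 (0.988), Zdhhc8 (0.977) and Plekhm1 (0.971). For Abcc4 they were Foxo1 (0.964), Mical3 (0.956) and Eml6 (0.955), and for Abcc5 they were Dcaf15 (0.962), Srpk2 (0.954) and Tubgcp2 (0.952). Abcb6 was nearest to Rabac1 (0.983), Trappc6a (0.961) and B4gat1 (0.957), Abcb1b to Nop58 (0.953), Mlkl (0.951) and Epsti1 (0.950), and Abcg2 to Phf1 (0.941), Spink5 (0.939) and Tnfsf9 (0.939). No pump gene was among the 100 genes most like another, out of 9612 or 9613 compared. So few places make this a weak sign of unlike patterns, and Abcg2 was below the level needed to be listed. Within the set, Abcc1 and Abcc3 had r = 0.888, Abcc3 and Abcc4 had 0.829, and Abcb1b ran against Abcc4 (-0.839) and Abcc5 (-0.835). Abcb6 and Abcc1 had r = 0.035.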

How the data were processed

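Bulk RNA of J774.1 cells was sequenced in 12 libraries, 2 in each of 6 groups, grouped by the labels. The authors deposited raw read counts per gene (total exon, unique exon, exon-exon, intron and total gene reads), with TPM and RPKM values by the authors, which were not used for tests. They also deposited tables of isorhamnetin against DMSO per genotype, with log2 fold changes and p-values. The build is GRCm38, per the submitters' processing notes; which aligner and counter were used is not given in the sources used here. Among exon read values between 1 and 4, 81.3% were even, so both reads of a pair appear to be counted, and limits on counts of 0 (3 reads) are too low.

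Exon reads were tested with edgeR 4.0.16 (R 4.3.3): genes passing its low-count filter (11808 of 15156 with reads), TMM scaling (factors 0.912 to 1.05), 1 mean per group over all 12 libraries, robust quasi-likelihood F-tests, and Benjamini-Hochberg adjustment over all tested genes in each of 10 contrasts. Confidence intervals are 95% and unadjusted. Intron reads were fitted the same way on 11450 genes. DESeq2 1.42.0 was an alternative. The test was tested on simulated data with 200 changed genes. Changes of 1.5-fold and 2-fold were recovered for 63% and 95% of genes in the WT comparison of treatments. In the GATA3-KO minus WT response they were recovered for 31% and 78%. The simulation gave every group the same spread and changed far fewer genes than were called in the data, so these shares need not hold there. The comparison of treatments in Rictor-KO was not simulated. Log2 CPM for likeness used a prior count of 2.

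The 8 genes and all lists were chosen with earlier results of these data known. Named genes are the 8 pumps, up to 3 genes per pathway list with the smallest p in the mean isorhamnetin contrast among those past the threshold, and the 3 genes most like each tested pump by r, at a mean log2 CPM of 1 or more and with assigned names. Promoter windows are RefSeq's on GRCm38.p6. No library was left out, and replicate libraries differed by more than sampling noise. Figures were drawn with matplotlib 3.10.9.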

Additional observations from a re-analysis of the deposited data

Results flagged for a closer look

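The responses below differed between a knockout line and WT by the test of the difference itself, on the log2 scale, knockout response minus WT response. The Abcc5 response in Rictor-KO was -0.69 relative to WT (SE 0.181, edgeR adjusted p = 0.0209). In GATA3-KO the values were -0.43 for Abcc1 (adjusted p = 0.0415), -2.50 for Abcc3 (adjusted p = 2.09e-04), -1.04 for Abcc4 (adjusted p = 3.42e-04) and -0.61 for Abcc5 (adjusted p = 0.0231). For Abcc4 the 2 isorhamnetin-treated GATA3-KO libraries overlapped the DMSO-treated ones, while both isorhamnetin-treated WT libraries were above both DMSO-treated ones. Groups of 2 libraries are too small for a check of single outlying libraries.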

How the results depend on the processing

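Each of 70 gene and contrast results was recomputed under up to 8 other settings and without each library in turn, 1400 values in all; 1293 kept their direction and their side of the threshold, 57 lost a call, 33 gained one and 17 changed sign. Scaling by RLE size factors and dropping the low-count filter changed no count of called pump genes. Exon-exon reads were added after the data were seen. Fitting only the libraries of the groups compared gave 1 called pump gene in place of 2 for isorhamnetin in Rictor-KO. There, 32 of 11105 genes were called higher and 4 lower, in place of 169 and 57 of 11808. For the Rictor-KO minus WT response it gave 2 pump genes in place of 1. In that fit, 799 of 11622 genes were called higher and 719 lower, in place of 785 and 839 of 11808. The cause was not tested.

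The labels do not say whether replicate numbers pair the samples, and the main fit has no block. Deviations of same-numbered libraries correlated at 0.744 between the Rictor-KO groups, 0.376 between the GATA3-KO groups and -0.077 between the WT groups. Same-numbered libraries thus shared a deviation in the knockout lines and not in WT. With a replicate block, 5 pump genes in place of 2 were called for isorhamnetin in Rictor-KO (Abcc1, Abcc3, Abcc4, Abcc5 and Abcb6 higher). Of all 11808 genes, 672 were called higher there and 745 lower, in place of 169 and 57. For the Rictor-KO minus WT response it called 4 pump genes in place of 1. There, 1833 of all genes were called higher and 1763 lower, in place of 785 and 839. The block also added Abcc4 (lower) in GATA3-KO, Abcb1b (lower) in the mean and Abcb1b (higher, 0.26) in the GATA3-KO minus WT response. A block within a line cannot serve for knockout against WT, so those comparisons were fitted with a replicate number effect shared by all lines. That fit added Abcg2 (lower) in Rictor-KO against WT under isorhamnetin. Deviations of same-numbered libraries correlated at -0.089 between those 2 groups. Calls over all genes rose in these comparisons as well.

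A group left with 1 library is assumed to vary like the others. Calls over all tested genes moved with the library left out as well. For isorhamnetin in GATA3-KO they fell most without replicate 1 of its DMSO group and without replicate 2 of its isorhamnetin group. Those were also the runs with the fewest called pump genes in that comparison. Whether pump genes lost calls more often than other genes was not tested. Without 1 library, isorhamnetin called 2 to 3 pump genes of Rictor-KO, 1 to 3 of GATA3-KO and 5 to 6 of WT. The count was 5 for the mean in every run, 0 to 2 for the Rictor-KO minus WT response and 2 to 4 for the GATA3-KO minus WT response. For knockout against WT it was 3 to 5 for Rictor-KO and 1 to 3 for GATA3-KO under DMSO, and 1 to 3 and 3 to 5 under isorhamnetin. For intron reads it was 3 in every run.

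The signs that changed belonged to values that did not pass the test with all libraries. Counting all gene reads, Abcg2 was -0.16 for isorhamnetin in GATA3-KO and -0.10 for the Rictor-KO minus WT response. On exon-exon reads, Abcc5 was 0.0062 for Rictor-KO against WT under isorhamnetin. Leaving out 1 library, Abcg2 ran between -0.82 and 0.68 for isorhamnetin in Rictor-KO, -0.31 and 0.29 in GATA3-KO, -0.033 and 1.47 for the Rictor-KO minus WT response, and -0.51 and 0.41 for GATA3-KO against WT under isorhamnetin. Abcb1b ran between -0.013 and 0.057 for isorhamnetin in GATA3-KO. For Rictor-KO against WT, Abcb6 ran between -0.031 and 0.44 under DMSO and between -0.27 and 0.15 under isorhamnetin, where Abcc4 ran between -0.052 and 0.0022 and Abcc5 between -0.20 and 0.19. Abcg2 and Abcb1a had the fewest reads.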
